A study of Mus musculus with 6 samples.

Results

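Hox genes encode homeodomain transcription factors that lie in 4 clusters, a on chromosome 6, b on chromosome 11, c on chromosome 15 and d on chromosome 2. The listed family held 38 genes of these clusters, named by symbol, though not every ID with the symbol pattern is on the list. Of the 38 listed genes, 37 had a gene ID in the count table, which held 37991 IDs in all, and Hoxd4 is not analysed here. Members were grouped by cluster and by paralog number as anterior (1 to 4), central (5 to 8) and posterior (9 to 13).

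In the embryo, Hox genes are switched on in the order in which they lie along a cluster, and their products give cells a position along the head-to-tail axis. Polycomb repressive complex 2 (PRC2), of which Ezh2 is the main methyltransferase, places the mark H3K27me3 over inactive Hox clusters and helps to keep them silent. Nascent germ cells of the mouse embryo turn Hox genes down while the neighbouring mesoderm goes on using them.

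The cells were mouse primordial germ cell-like cells (PGCLCs), a culture model of early germ cells for which embryonic stem cells are first turned into epiblast-like cells. The Ezh2 KO group (3 libraries) carried Ezh2-/- and CreERT2 and had received 4-hydroxytamoxifen, dissolved in ethanol, in the medium that induces PGCLCs. The Ctrl group (3 libraries) carried the undeleted Ezh2f/f alleles with the same CreERT2 and had received ethanol alone. Both groups were on a C57BL/6 background, were grown as aggregates with BMP2, SCF, LIF and EGF, and were taken on day 4; fresh medium without either agent was added on day 2. CreERT2 is a recombinase that the drug activates; as only the Ezh2 KO group received it, effects of the drug and of the deletion cannot be told apart. The labels give neither the gate used to sort the cells nor the number of stem cell clones, and no label says that replicates were separate inductions, so p-values measure only the spread between these libraries.

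Ezh2 itself stood at 40.8, 67.1 and 70.0 CPM (counts per megaread, after scaling of library sizes) in Ezh2 KO replicates 1 to 3, against 91.8, 78.1 and 95.3 CPM in Ctrl replicates 1 to 3. The groups did not overlap, but reads of exons outside the deleted part are counted too, so these values do not measure the enzyme that was left. Total counts ran from 27072150 to 38643944 in Ezh2 KO libraries and from 27358959 to 49382146 in Ctrl libraries. Ezh2 KO replicate 2 and Ctrl replicate 1 lay at opposite ends of the first principal component (78.0 and -61.4, with the others between -35.5 and 13.3). All 9 germ cell markers on the list were tested, 6 with a negative and 3 with a positive log2 fold change and 0 with an unadjusted p under 0.05; their summed level was 591 to 730 CPM in Ezh2 KO libraries and 680 to 953 CPM in Ctrl libraries, among them Tfap2c at 227 ± 73.0 CPM in Ezh2 KO and 300.2 ± 20.1 CPM in Ctrl and Dppa3 at 181 ± 52.5 CPM in Ezh2 KO and 222 ± 28.6 CPM in Ctrl (SD, n = 3 each).

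Hoxa5, Hoxa7 and Hoxa9, all of cluster a, were the tested members in which every Ezh2 KO library lay under every Ctrl library. Hoxa6, which lies between Hoxa5 and Hoxa7, was too scarce to test and overlapped between groups. The promoters of Hoxa5, Hoxa7 and Hoxa9 are shown because the values of these members carry the pattern described next. Each window holds 300 bases from RefSeq (GRCm38.p6, minus strand), 250 before and 50 after the annotated start, at chr6:52204538-52204837, chr6:52218524-52218823 and chr6:52227321-52227620. The count table was made on an older build, so these coordinates belong to the sequences alone. Capitals mark the dinucleotide CG, which reads the same on both strands and is dense in the CpG islands that PRC2 occupies.
Hoxa5: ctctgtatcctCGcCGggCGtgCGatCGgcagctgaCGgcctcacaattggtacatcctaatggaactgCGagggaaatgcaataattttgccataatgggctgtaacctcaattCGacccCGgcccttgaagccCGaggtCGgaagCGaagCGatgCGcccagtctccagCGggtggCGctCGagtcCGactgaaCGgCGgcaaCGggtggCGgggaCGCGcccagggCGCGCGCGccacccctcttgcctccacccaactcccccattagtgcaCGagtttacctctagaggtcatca
Hoxa7: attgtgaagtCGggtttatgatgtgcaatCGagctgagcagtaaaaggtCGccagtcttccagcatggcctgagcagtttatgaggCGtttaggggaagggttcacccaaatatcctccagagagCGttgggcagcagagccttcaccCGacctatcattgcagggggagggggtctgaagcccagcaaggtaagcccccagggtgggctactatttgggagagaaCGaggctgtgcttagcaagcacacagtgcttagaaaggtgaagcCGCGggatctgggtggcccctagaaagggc
Hoxa9: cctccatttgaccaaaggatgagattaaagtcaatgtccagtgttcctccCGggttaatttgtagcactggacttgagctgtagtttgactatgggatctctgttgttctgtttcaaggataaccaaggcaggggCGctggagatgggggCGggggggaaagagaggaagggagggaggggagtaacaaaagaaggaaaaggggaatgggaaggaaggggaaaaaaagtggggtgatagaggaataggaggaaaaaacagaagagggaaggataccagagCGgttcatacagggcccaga

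The windows differed widely in CG content. That of Hoxa5 held 29 CG, more than 87.1% of the 32851 promoters in the table, that of Hoxa7 held 9 (more than 54.2%) and that of Hoxa9 held 4 (more than 31.4%). Among all promoters 94.6% had at least 1 CG, with a median of 7. The 24 promoters found for 22 of the 38 listed genes had a median of 14.5 and ran from 4 to 45, and 11 of these 24 were over 50% in GC with an observed-to-expected CG ratio over 0.6, as were 33.3% of all promoters. The CG counts of Hoxa5, Hoxa7 and Hoxa9 thus spanned from the sparse to the dense side of all promoters.

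Across the whole family, Hox transcripts were scarce in both groups and scarcer in Ezh2 KO. The 37 genes summed to 5.05, 4.05 and 4.77 CPM in Ezh2 KO replicates 1 to 3, against 14.0, 13.1 and 9.06 CPM in Ctrl replicates 1 to 3. The groups did not overlap, and the Ezh2 KO libraries lay closer together (4.63 ± 0.515 CPM) than the Ctrl libraries (12.1 ± 2.64 CPM; SD, n = 3 each), so Ezh2 KO stood at 38.4% of Ctrl. Within same-numbered libraries the shares were 36.1%, 31.0% and 52.6%. Of the 31 members with any read, 29 had a lower mean CPM in Ezh2 KO, against 47.6% of all genes with a read, and 7 of the 31 were lower without overlap, against 3.56%. With every ID whose symbol has the Hox pattern, 38 in all, the sum stood at 38.7% of Ctrl. In bulk RNA, fewer cells that use Hox genes and less Hox RNA per cell cannot be told apart. A sum over members chosen with earlier results known carries no p-value here.

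**Figure D1:**
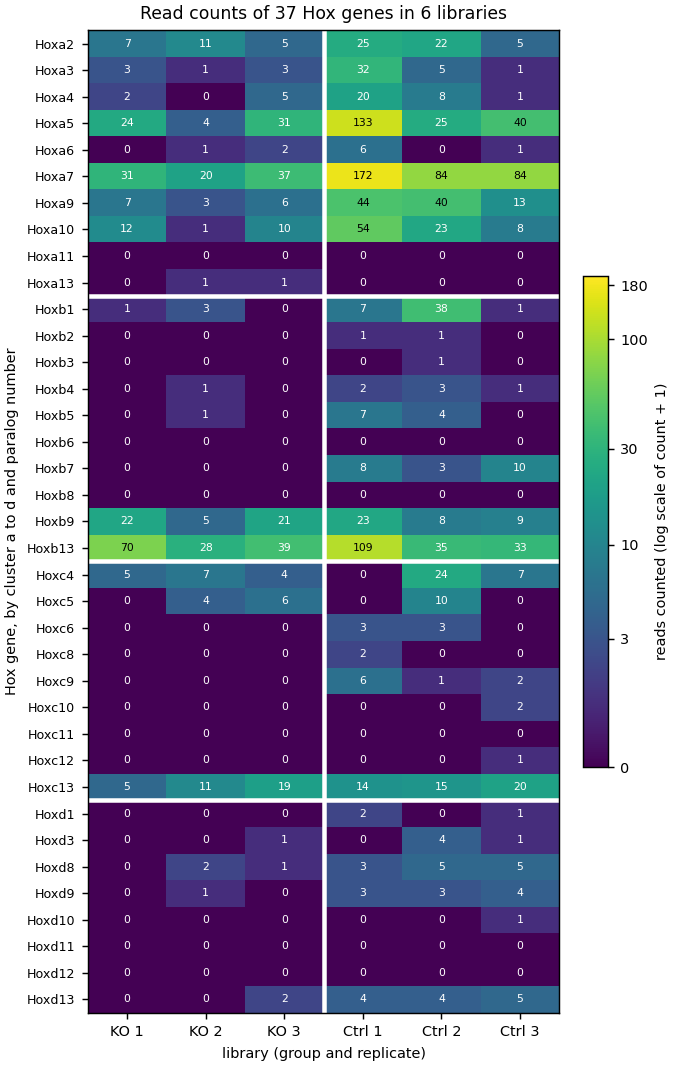
Read counts of 37 Hox genes (rows, by cluster and paralog number) in the Ezh2 KO and Ctrl libraries (columns), with colour on a log scale of count + 1. Hoxa7 and Hoxb13 have 20 or more reads in every library, large parts of clusters b, c and d are at or near 0, and Hoxb7 has 0 reads in all Ezh2 KO libraries.

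The lower level was unevenly spread over the clusters. Cluster a, the largest contributor in Ctrl, summed to 2.30, 1.62 and 2.47 CPM in Ezh2 KO replicates 1 to 3, against 10.0, 7.34 and 5.41 CPM in Ctrl replicates 1 to 3, with no overlap and Ezh2 KO at 28.1% of Ctrl. Cluster b summed to 1.81 ± 0.584 CPM in Ezh2 KO and 2.82 ± 0.785 CPM in Ctrl (SD, n = 3 each), and the groups overlapped. Cluster c overlapped as well, at 0.611 ± 0.305 CPM in Ezh2 KO and 1.18 ± 0.684 CPM in Ctrl. Cluster d was close to silent: 0.0715 ± 0.0625 CPM in Ezh2 KO and 0.472 ± 0.195 CPM in Ctrl, without overlap, on 0, 3 and 4 reads in Ezh2 KO libraries against 12, 16 and 17 in Ctrl libraries. Cluster a made up 40% to 51.8% of the Hox sum in Ezh2 KO libraries and 56.1% to 71.5% in Ctrl libraries. Without Ctrl replicate 1 and Ezh2 KO replicate 2, the log2 ratio of the cluster a sums was -1.42, against -1.83 with all libraries. With every ID of the Hox pattern, 11 in cluster a, that cluster stood at 4.19 ± 0.522 CPM in Ezh2 KO and 12.8 ± 4.16 CPM in Ctrl, or 32.7% of Ctrl. In clusters b and c too the Ezh2 KO sum was lower in 3 of 3 same-numbered pairs, and differences between clusters were not tested.

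By position, the central paralogs stood at 1.47, 1.24 and 1.90 CPM in Ezh2 KO replicates 1 to 3 against 6.89, 4.75 and 4.95 CPM in Ctrl replicates 1 to 3, without overlap. Most of that sum is Hoxa7 and Hoxa5. The posterior paralogs stood at 2.48 ± 0.588 CPM in Ezh2 KO and 4.45 ± 0.923 CPM in Ctrl (SD, n = 3 each), again without overlap. Without Hoxb13, the most abundant posterior member, the log2 ratio of the posterior sums was -1.30, against -0.84 with all members. Inside the posterior group the clusters differed in value, and these differences were not tested. The 4 posterior genes of cluster a were at 0.508, 0.193 and 0.420 CPM in Ezh2 KO against 2.02, 2.24 and 0.743 CPM in Ctrl. Hoxb9 and Hoxb13 of cluster b were at 2.46, 1.27 and 1.48 CPM in Ezh2 KO against 2.72, 1.53 and 1.49 CPM in Ctrl. The posterior genes of cluster b therefore overlapped between groups (91.0% of Ctrl) while those of cluster a did not (22.4%). Those of cluster c overlapped (55.1% of Ctrl), and those of cluster d did not (11.8%). The cluster d values rest on 0, 1 and 2 reads in Ezh2 KO libraries against 7, 7 and 10 in Ctrl libraries. The anterior paralogs were at 0.481, 0.888 and 0.445 CPM in Ezh2 KO against 1.83, 3.76 and 0.637 CPM in Ctrl; the groups overlapped, Ezh2 KO was lower in 3 of 3 same-numbered pairs, and Ctrl replicate 2 stood highest. With every ID of the Hox pattern, which adds 1 to the anterior group, the anterior sum was 2.67 ± 0.182 CPM in Ezh2 KO and 7.30 ± 3.86 CPM in Ctrl, without overlap.

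**Figure D2:**
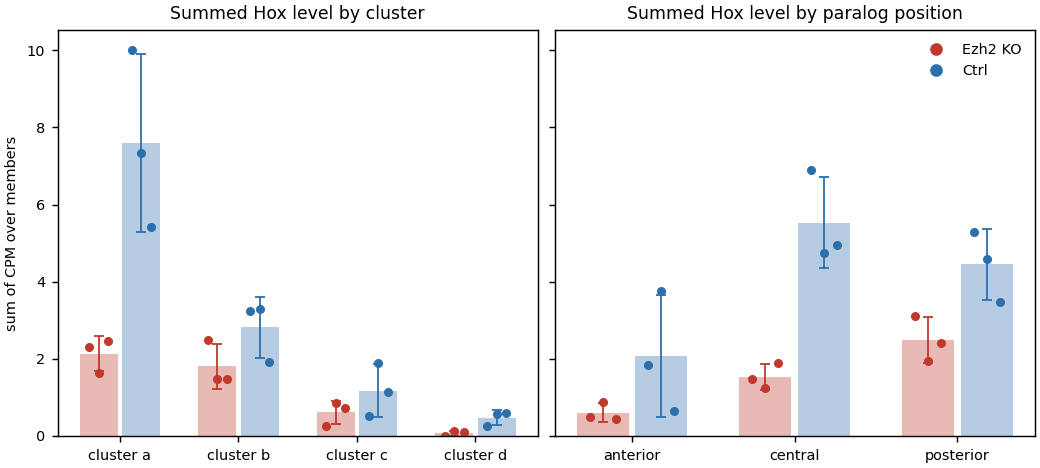
Summed CPM (y axis) of the Hox members by cluster (left) and by paralog position (right); dots are libraries 1 to 3 from left, bars the mean and whiskers the SD of Ezh2 KO (red) and Ctrl (blue). The groups do not overlap in clusters a and d or in the central and posterior paralogs, and overlap in clusters b and c and the anterior paralogs.

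Of the 37 genes, 8 were abundant enough to test: Hoxa2, Hoxa5, Hoxa7, Hoxa9, Hoxa10, Hoxb9, Hoxb13 and Hoxc13. The quasi-likelihood test of edgeR called none of them, as it called 0 of 16420 genes (0% lower and 0% higher; smallest adjusted p = 0.976). Unadjusted, 4 members had an edgeR p under 0.05 in the lower direction and 0 in the higher one, against 1.25% and 1.55% of all tested genes. Without Ctrl replicate 1, without Ezh2 KO replicate 2, or without both, 2 members had such a p. Libraries did not overlap in 3 of the 8, all lower, where 4.03% of all tested genes were lower and 4.07% higher without overlap. Hoxa9 passed the filter on low counts through its Ctrl libraries alone, so these shares over tested members are a description of which genes were measurable.

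Hoxa7 (ENSMUSG00000038236), a central gene that patterns the thoracic part of the axis, had the tightest replicates of the tested members. It stood at 0.829, 0.772 and 0.914 CPM in Ezh2 KO replicates 1 to 3, against 3.55, 2.98 and 2.97 CPM in Ctrl replicates 1 to 3. All Ezh2 KO libraries were low and close together, and each pair of same-numbered libraries showed the gap (23.4%, 25.9% and 30.8% of Ctrl). The log2 fold change was -1.91 ± 0.30 (SE; 95% interval -2.61 to -1.21; edgeR unadjusted p = 2.11e-04, adjusted p = 0.976). DESeq2, run as an alternative, called Hoxa7 (adjusted p = 2.90e-05), where it called 0.00804% of genes lower and 0.0121% higher. Adding the replicate block, DESeq2 called it too (adjusted p = 0.00151), with 0.154% of genes lower and 0.131% higher. In the annotation used for lengths, 20.4% of the exonic bases of Hoxa7 are shared with the antisense transcript Hoxaas3, which had 5, 5 and 10 reads in Ezh2 KO libraries and 8, 6 and 6 in Ctrl libraries.

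Hoxa9 (ENSMUSG00000038227), the next gene of the cluster and a regulator of blood progenitors and the lumbar axis, was lower in Ezh2 KO in every library. Ezh2 KO replicates 1 to 3 held 0.187, 0.116 and 0.148 CPM, against 0.907, 1.42 and 0.460 CPM in Ctrl replicates 1 to 3. These levels rest on 7, 3 and 6 reads in Ezh2 KO libraries and 44, 40 and 13 reads in Ctrl libraries, and the groups did not overlap. The log2 fold change was -2.58 ± 0.55 (SE; 95% interval -3.83 to -1.32; edgeR unadjusted p = 0.00138, adjusted p = 0.976).

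Hoxa5 (ENSMUSG00000038253), which acts in the cervical and upper thoracic axis and in the lung, completed the set without overlap. It was at 0.642, 0.154 and 0.766 CPM in Ezh2 KO replicates 1 to 3, against 2.74, 0.887 and 1.42 CPM in Ctrl replicates 1 to 3. Its replicates were spread more widely than those of Hoxa7, and Ezh2 KO replicate 3 lay close under Ctrl replicate 2. The log2 fold change was -1.66 ± 0.62 (SE; 95% interval -3.09 to -0.24; edgeR unadjusted p = 0.0274, adjusted p = 0.976). Without Ctrl replicate 1 the log2 fold change was -1.10 (edgeR unadjusted p = 0.121), and without Ctrl replicate 1 and Ezh2 KO replicate 2 it was -0.70 (edgeR unadjusted p = 0.183).

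A further pair of cluster a genes pointed the same way with overlapping libraries. Hoxa10 (ENSMUSG00000000938), which acts in the lumbar axis and the uterus, was at 0.321, 0.0386 and 0.247 CPM in Ezh2 KO replicates 1 to 3 against 1.11, 0.816 and 0.283 CPM in Ctrl replicates 1 to 3 (log2 fold change -1.81 ± 0.70 SE; edgeR unadjusted p = 0.0330, adjusted p = 0.976). Ctrl replicate 3 lay within the range of the Ezh2 KO libraries, and Hoxa10 had a log2 fold change of -0.95 with Ctrl replicate 1 and Ezh2 KO replicate 2 left out (edgeR unadjusted p = 0.197). Hoxa2 (ENSMUSG00000014704), which sets the identity of a branchial arch, was at 0.187, 0.425 and 0.124 CPM in Ezh2 KO against 0.515, 0.781 and 0.177 CPM in Ctrl, and the 95% interval of its log2 fold change ran from -2.60 to 0.48; part of its exonic bases is shared with Gm28308. In both genes the same-numbered Ctrl library was the higher one in 3 of 3 pairs.

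**Figure D3:**
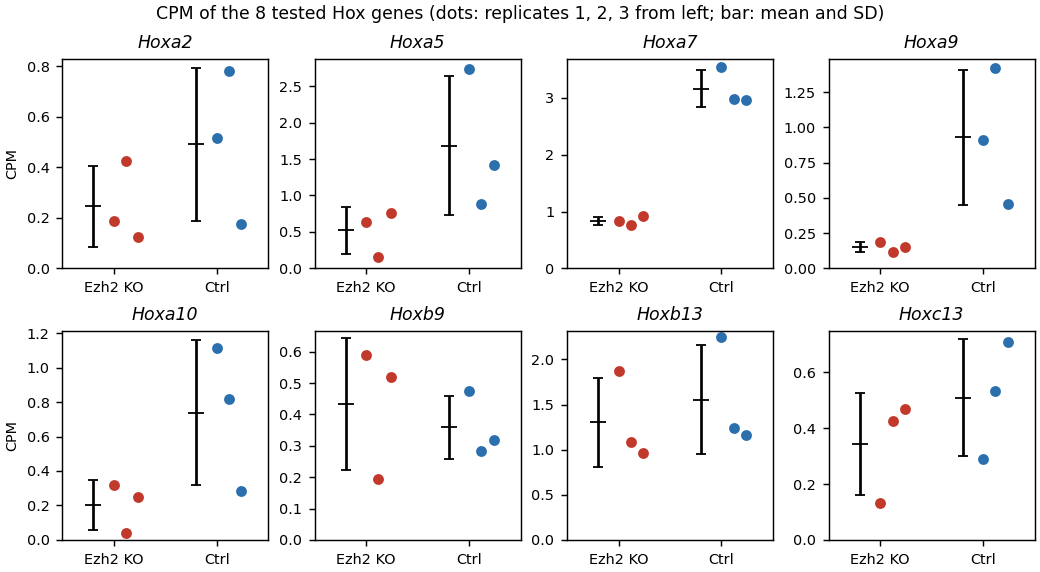
CPM (y axis, from 0, scaled per panel) of the 8 tested Hox genes in Ezh2 KO (red, left) and Ctrl (blue, right) libraries; dots are replicates 1 to 3 from left, and the black marks give the mean and SD. Hoxa5, Hoxa7 and Hoxa9 show no overlap between groups, and Hoxb9, Hoxb13 and Hoxc13 overlap.

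The tested posterior genes outside cluster a overlapped between groups, with Hoxb13 and Hoxc13 lower than the same-numbered Ctrl library in 3 of 3 pairs and Hoxb9 in 1 of 3. Hoxb13 (ENSMUSG00000049604), which acts at the tail end of the axis and in the prostate, was at 1.87, 1.08 and 0.963 CPM in Ezh2 KO replicates 1 to 3, against 2.25, 1.24 and 1.17 CPM in Ctrl replicates 1 to 3. The groups overlapped, and the log2 fold change was -0.26 with a 95% interval from -1.23 to 0.71. Its sign turned to 0.12 without Ctrl replicate 1. Hoxb9 (ENSMUSG00000020875), a rib-patterning gene, was at 0.588, 0.193 and 0.519 CPM in Ezh2 KO against 0.474, 0.284 and 0.318 CPM in Ctrl (log2 fold change 0.27, 95% interval -0.90 to 1.45). Hoxc13 (ENSMUSG00000001655), known for its role in hair and nails, was at 0.134, 0.425 and 0.469 CPM in Ezh2 KO against 0.289, 0.532 and 0.708 CPM in Ctrl (log2 fold change -0.55, 95% interval -1.89 to 0.79).

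Set on a scale of CPM per kilobase of exon, the most abundant member in Ctrl was Hoxa7 (1.10), followed by Hoxa5 (0.896) and Hoxb13 (0.704). In Ezh2 KO the order of these levels was Hoxb13 (0.592), Hoxa7 (0.292) and Hoxa5 (0.277). Neighbours in either order were not tested against each other. Averaged over all libraries, 22.6% of tested genes lay below Hoxa7 on this scale, and 2.89% lay below Hoxa9. Even the leading listed members were thus among the scarcer tested transcripts. IDs with the Hox pattern outside the list were not ranked.

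The other 29 members were too scarce to test, and 6 of these (Hoxa11, Hoxb6, Hoxb8, Hoxc11, Hoxd11 and Hoxd12) had 0 reads in all libraries. Of the 23 with any read, 22 had a lower mean CPM in Ezh2 KO, against 45.9% of the genes under the filter with a read. Hoxa13, with 1 read in each of 2 Ezh2 KO libraries, was the exception. Reads were present in Ctrl and absent from Ezh2 KO in 10 of these 23, against 14.9% of such genes. The opposite held for Hoxa13 alone, against 17.1% of such genes. Most of these members rest on a handful of reads.

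Among them, Hoxb7, a central gene, had 0 reads in each Ezh2 KO library against 8, 3 and 10 reads in Ctrl replicates 1 to 3. With 3 reads over the Ezh2 KO group taken as the floor and Ctrl reads taken as counted, Hoxb7 was 6.92-fold lower in Ezh2 KO. Hoxc9 had 0 reads in Ezh2 KO against 6, 1 and 2 in Ctrl (2.97-fold lower on the same floor). Hoxd9 had 0, 1 and 0 reads in Ezh2 KO against 3, 3 and 4 in Ctrl, and Hoxd13, which shapes the digits, had 0, 0 and 2 in Ezh2 KO against 4, 4 and 5 in Ctrl. These 4 were the members under the filter whose libraries did not overlap. The floors cover counting error in Ezh2 KO only and not in Ctrl, so these folds are not lower bounds. The central genes of cluster b together, Hoxb5 to Hoxb8, held 0, 0.0386 and 0 CPM in Ezh2 KO replicates 1 to 3 against 0.309, 0.248 and 0.354 CPM in Ctrl replicates 1 to 3. The other 14 members with a read (Hoxa6, Hoxb2, Hoxb3, Hoxb4, Hoxb5, Hoxc5, Hoxc6, Hoxc8, Hoxc10, Hoxc12, Hoxd1, Hoxd3, Hoxd8 and Hoxd10) had at most 6 reads in an Ezh2 KO library and at most 10 in a Ctrl library, and overlapped between groups.

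Members with 30 or more reads under the filter had most of their Ctrl reads in single libraries. Hoxb1, a hindbrain gene that is also used in early mesoderm, had 1, 3 and 0 reads in Ezh2 KO replicates 1 to 3 against 7, 38 and 1 in Ctrl replicates 1 to 3. Hoxa3, which acts in the pharyngeal region, had 3, 1 and 3 reads in Ezh2 KO against 32, 5 and 1 in Ctrl. Hoxa4 had 2, 0 and 5 reads in Ezh2 KO against 20, 8 and 1 in Ctrl, and Hoxc4 had 5, 7 and 4 in Ezh2 KO against 0, 24 and 7 in Ctrl. The groups overlapped in all 4 genes, with Ctrl replicate 1 highest for Hoxa3 and Hoxa4 and Ctrl replicate 2 highest for Hoxb1 and Hoxc4. Exons of Hoxa3 and Hoxd3 are shared with other annotated genes over 27.1% and 62.8% of their bases, so their separate counts are uncertain.

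Genes beside the clusters were, in sum, far more abundant than the Hox genes, at 944 to 1040 CPM in Ezh2 KO libraries and 986 to 1020 CPM in Ctrl libraries. Of 13 flanking genes found, 11 were tested and edgeR called 0, and 0 had an unadjusted p under 0.05. With the replicate block, Hibadh had an edgeR unadjusted p of 0.0461. Of the 11, 1 was lower without overlap and 0 were higher, where 4.03% of all tested genes were lower. This was Ttll6, at 3.40, 2.36 and 3.41 CPM in Ezh2 KO replicates 1 to 3 against 5.28, 3.44 and 4.17 CPM in Ctrl replicates 1 to 3. Skap2, which lies beyond the anterior end of cluster a, was at 74.6 ± 4.51 CPM in Ezh2 KO and 78.3 ± 7.27 CPM in Ctrl (log2 fold change -0.07, 95% interval -0.42 to 0.28), and Hibadh, a valine-breakdown enzyme beyond its posterior end, at 189 ± 37.0 CPM in Ezh2 KO and 241 ± 12.97 CPM in Ctrl (-0.35, -0.72 to 0.03; SD, n = 3 each). Beside cluster d, Mtx2, a mitochondrial import protein, was at 85.2 ± 4.74 CPM in Ezh2 KO and 83.2 ± 4.39 CPM in Ctrl, and Evx1 and Evx2, homeobox genes next to clusters a and d, had at most 4 reads in a library. Whether the Hox genes differ from their neighbours was not tested as a group.

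**Figure D4:**
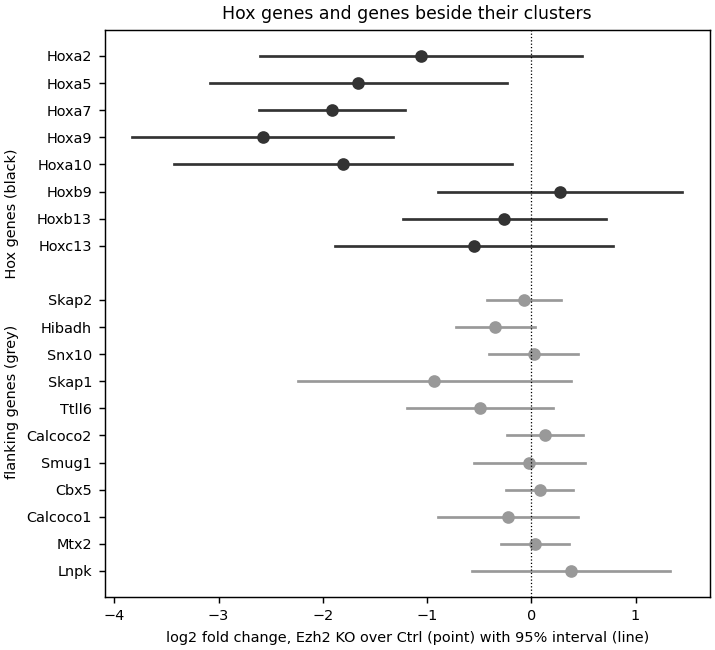
Log2 fold change, Ezh2 KO over Ctrl (x axis), with its 95% interval for the 8 tested Hox genes (black) and the 11 tested genes beside the clusters (grey). The intervals of Hoxa5, Hoxa7, Hoxa9 and Hoxa10 lie under 0, and those of the other Hox genes and of all flanking genes include 0.

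Noncoding RNAs of the clusters summed to 2.40 to 3.75 CPM in Ezh2 KO libraries and 2.41 to 4.15 CPM in Ctrl libraries. Of 17 found, 2 were tested, 8 had 0 reads in every library (the 6 genes of miR-10, miR-196 and miR-615, Hottip and Hotair), and edgeR called 0. Hotairm1, an antisense transcript at the anterior end of cluster a, was at 1.10, 1.12 and 0.766 CPM in Ezh2 KO replicates 1 to 3 against 1.44, 1.42 and 1.34 CPM in Ctrl replicates 1 to 3, without overlap (log2 fold change -0.50, 95% interval -1.26 to 0.26). Gm53, a noncoding gene between Hoxb13 and Hoxb9, was at 1.90 ± 0.564 CPM in Ezh2 KO and 1.32 ± 0.502 CPM in Ctrl (SD, n = 3 each).

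Among 12 tested genes that act upstream of Hox clusters, edgeR called 0, and 2 had an unadjusted p under 0.05, both lower. Of all tested genes, 1.25% were lower and 1.55% higher at such a p. Aldh1a2, which makes retinoic acid, was at 0.401, 0.463 and 0.173 CPM in Ezh2 KO replicates 1 to 3 against 1.38, 1.24 and 1.03 CPM in Ctrl replicates 1 to 3 (log2 fold change -1.84 ± 0.45 SE; edgeR adjusted p = 0.976). Cdx2, a caudal factor that activates central Hox genes, was at 0.508, 0.270 and 0.346 CPM in Ezh2 KO against 0.639, 0.922 and 0.991 CPM in Ctrl (-1.15 ± 0.42 SE). Neither gene overlapped between groups, where 4.03% of all tested genes were lower without overlap. Cdx1, a paralog of Cdx2, was at 6.66 ± 2.72 CPM in Ezh2 KO and 12.9 ± 10.8 CPM in Ctrl (SD, n = 3 each), with Ctrl replicate 3 lowest of all at 2.51 CPM.

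The DNA-binding partners of Hox proteins were present throughout. All 9 Pbx, Meis and Pknox genes were tested, and their sum was 86.2 to 101 CPM in Ezh2 KO libraries and 80.3 to 100.1 CPM in Ctrl libraries. Pknox2 alone had an unadjusted p under 0.05, at 5.96, 3.09 and 6.20 CPM in Ezh2 KO against 3.20, 2.24 and 1.88 CPM in Ctrl (log2 fold change 1.06 ± 0.37 SE; edgeR adjusted p = 0.976). Among 7 trithorax genes and H3K27 demethylases, which oppose polycomb at Hox clusters, 0 had an unadjusted p under 0.05; Ash2l was at 610.1 ± 80.7 CPM in Ezh2 KO and 604 ± 41.6 CPM in Ctrl. Of the PRC2 core, Eed stood at 258 ± 43.4 CPM in Ezh2 KO and 252 ± 36.6 CPM in Ctrl, and Suz12 at 180.3 ± 64.6 CPM in Ezh2 KO and 178 ± 65.9 CPM in Ctrl (SD, n = 3 each).

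Markers of other cell types were compared as lists, and their levels do not show whether the cells that carry them use Hox genes. The 9 posterior neural markers found summed to 1.63 to 2.30 CPM in Ezh2 KO libraries and 3.57 to 4.22 CPM in Ctrl libraries, without overlap. Of these, 3 were tested, Olig2 and Neurog2 were at 0 in every library, and Neurog1, a proneural factor, was at 0.251 ± 0.190 CPM in Ezh2 KO and 1.35 ± 0.405 CPM in Ctrl (SD, n = 3 each). The summed level of the 15 posterior and paraxial mesoderm markers overlapped between groups, at 23.3 to 31.0 CPM in Ezh2 KO libraries and 23.0 to 27.2 CPM in Ctrl libraries, with Foxf1 at 0; 6 of the 10 tested had a negative log2 fold change. Within that list Eomes, its most abundant gene, was at 11.1, 12.4 and 13.9 CPM in Ezh2 KO replicates 1 to 3 against 10.6, 11.03 and 9.34 CPM in Ctrl replicates 1 to 3, higher without overlap (log2 fold change 0.27, edgeR adjusted p = 0.976). Msgn1 was also higher without overlap, on 4, 1 and 2 reads in Ezh2 KO against 1, 0 and 0 in Ctrl, and Hand2 was lower without overlap, on 0 reads in Ezh2 KO libraries against 3, 2 and 4 in Ctrl. Trophoblast and extraembryonic markers, 9 of 9 tested, summed to 104 to 170.3 CPM in Ezh2 KO libraries and 75.9 to 222 CPM in Ctrl libraries, and 6 of the 9 had a negative log2 fold change. Elf5, a trophoblast factor, was higher without overlap, at 1.17 ± 0.350 CPM in Ezh2 KO and 0.549 ± 0.170 CPM in Ctrl, and Sox17, an endoderm factor, was lower without overlap, at 0.152 ± 0.148 CPM in Ezh2 KO and 0.508 ± 0.115 CPM in Ctrl (SD, n = 3 each). The part of such cells in the Hox levels was not tested.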

How the data were processed

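RNA-seq was done on 6 libraries, 3 Ezh2 KO and 3 Ctrl. The deposited values are raw read counts per Ensembl gene; CASAVA 1.8.4, Trimmomatic 0.33, TopHat2 2.0.11 and featureCounts on mm9 (NCBIM37) are named per the submitters' processing notes. These notes and the labels give no strand setting and no annotation version, so reads of a gene and of an antisense or overlapping partner cannot be told apart. Symbols (32919 of 37991 IDs matched) and exon lengths came from GENCODE M21.

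Genes kept by filterByExpr (minimum count 10, or 0.302 CPM, in 3 libraries) were tested with edgeR 4.0.16 in R 4.3.3: TMM scaling, robust quasi-likelihood test, group as the only term, two-sided, Benjamini-Hochberg adjustment over all genes, threshold 0.05. The fits were also run on simulated counts with known fold changes, a fixed dispersion and no replicate effects. That run checks the code and does not measure how many changed genes these libraries could reveal. DESeq2 1.42.0, voom of limma 3.58.1 and other alternatives are given in the closing section.

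Same-numbered libraries deviated together from their group means (correlations 0.58, 0.37 and 0.19). Ezh2 KO replicate 2 did so with Ctrl replicate 3 as well (0.30), more than the same-numbered replicates 3 did (0.19). The labels give replicate numbers but state no pairing, so values by same-numbered pair are a description. The main fit has no pairing term, and the replicate block was run as an alternative. Members, lists and tests were chosen with earlier results of these data known. All members are named. Of the other lists, genes with an unadjusted p under 0.05 and up to 3 more of highest CPM are named. Further ones (Skap2, Mtx2, Ttll6, Evx1, Evx2, Cdx1, Msgn1, Hand2, Sox17, Olig2, Neurog2, Foxf1, Hottip and Hotair) were chosen after their values were seen. Of the IDs with the Hox pattern, 1 is not among the listed genes and is not reported here by itself.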

Additional observations from a re-analysis of the deposited data

How the results depend on the processing

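Over all genes, edgeR called 0 of 16420 (459 at an unadjusted p under 0.05) and 0 under every other edgeR or voom setting; DESeq2 called 5, and DESeq2 with the replicate block 50. Among Hox members DESeq2 called 1 with and 1 without the block, in each case Hoxa7 (log2 fold change -1.93 and -1.92); the cause was not tested. With the replicate block, edgeR called 0 genes (smallest adjusted p = 0.158, with 1495 at an unadjusted p under 0.05). Pairing changed no call on a member. Unadjusted, 4 of 8 Hox members passed 0.05 in edgeR, against 459 of 16420 genes. Without a filter 10 of 31 members did, against 787 of 26974 genes. Under the stricter filter 1 of 2 members did, against 334 of 13849 genes. Without Ezh2 KO replicate 1, 1432 genes passed.

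Hoxb13 was the tested member whose sign turned: leaving out 1 library gave -0.62 to 0.12 (0.12 without Ctrl replicate 1), and leaving out both Ctrl replicate 1 and Ezh2 KO replicate 2 gave 0.23. The last setting, for sums an alternative chosen after seeing the data, gave log2 ratios of -1.42 for cluster a, -1.53 for the central paralogs and -3.56 for cluster d. Without its most abundant member, Hoxb13 in both cases, cluster b stood at -1.32 and the posterior paralogs at -1.30. Leaving out 1 library, cluster d ran from -3.26 to -2.14. The other sums, and the other 7 tested members, kept their direction in the alternatives run on them; members under the filter were not run with libraries left out. Depth limits the 29 members under the filter most, since each rests on few reads.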
